A study of Mus musculus with 8 samples.

Results

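The genes described here are 10 members of the epidermal growth factor (EGF) receptor system, taken from the 54532 genes of the count table by their mouse symbols: the ligands Hbegf, Tgfa, Btc, Areg and Ereg, the receptors Egfr, Erbb2 and Erbb3, and the inhibitors Errfi1 and Lrig1. All 10 were found. RNA came from lens capsules of wild-type C57BL/6 mice aged 6 to 8 weeks, collected on day 7 after the operation. There were 4 sham libraries and 4 libraries of an injury model that the labels name ASC and present as fibrotic cataract. The ASC injury was a needle puncture of the anterior capsule through the cornea, and the sham operation opened the cornea only. The labels call the replicates biological without giving the number of capsules or animals behind each library.

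EGF family ligands are made as membrane-anchored precursors that metalloproteases release from the cell surface. They pair ERBB receptors, which then signal through RAS and ERK and through PI3 kinase, and HB-EGF (Hbegf), amphiregulin (Areg), epiregulin (Ereg) and the kinase inhibitor Errfi1 are known to be transcribed in response to that same signal in many epithelia. In the lens, EGF receptor signalling is known for promoting proliferation and migration of epithelial cells. The study set ASC against sham to see overall expression differences in the injured capsule, and the question here is which parts of this receptor system differ with it.

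No gene of the 10 passed the test, and Areg and Ereg had too few reads to be tested. Of the 8 tested, 0 passed an adjusted p of 0.05 in edgeR's quasi-likelihood test, where 1.02% of all 15857 tested genes passed. A count of 0 among 8 genes is close to that share. Of the 8, 0 also had an unadjusted p under 0.05, against 14.7% of all tested genes, and 0 passed in DESeq2, which called 3.06% of its genes, or in limma-voom, which called 0.675%. The 4 ASC libraries overlapped the 4 sham libraries for each of the 8, while the groups did not overlap for 9.06% of tested genes. The median log2 fold change of the 8 (ASC over sham) was -0.06, beside 0.01 for all tested genes. The 95% confidence interval lay within a 2-fold change either way for 6 of the 8 (Hbegf, Tgfa, Egfr, Erbb2, Errfi1 and Lrig1), as it did for 72.2% of tested genes, so for these 6 the data bound the change, and for Btc and Erbb3 they leave a 2-fold difference possible.

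Library totals lay between 14420494 and 21141582 counts. Markers of lens epithelium were present in every library, with mean levels in CPM (counts relative to the scaled library total) of 455 in sham and 410 in ASC for Pax6 and of 329 and 335 for Foxe3. Of the 9 lens epithelial markers tested 1 passed, Mab21l1, which fell from 147 ± 19.2 CPM to 75.3 ± 7.89 CPM (log2 fold change -0.96, adjusted p = 0.00209, edgeR). On the first principal component, which held 31.7% of the variance, sham 3 lay on the side of ASC 2, ASC 3 and ASC 4, and ASC 1 on the side of the other sham libraries. Without sham 3 and ASC 1, 0 of the 10 genes passed. Summed markers of red cells were 40.1 to 62.8 CPM in sham and 73.9 to 370 CPM in ASC, with 0 of 5 past the threshold in edgeR, 5 at an unadjusted p below 0.05 and 4 past it in DESeq2. Summed pigment cell markers were 89.2 to 255 CPM and 181 to 656 CPM, with 0 of 7 past it in edgeR, 5 at an unadjusted p below 0.05 and 2 past it in DESeq2. Of 9 tested corneal epithelial markers the keratins Krt5, Krt12 and Krt6a rose, and the list's sum was 392 to 611 CPM in sham and 358 to 964 CPM in ASC. The sums of lens fibre markers were 26019 to 51486 CPM in sham and 31958 to 93456 CPM in ASC, and of the 15 markers Cryga and Cryge rose in edgeR's test while DESeq2 called 8. Macrophage markers summed to 11.1 to 50.4 CPM and 19.4 to 77.0 CPM, and neutrophil markers to at most 1.26 CPM in sham and 3.71 CPM in ASC, with Ly6g and Cxcr2 at 0 in all libraries. The part of these other cells in the values below was not tested. In bulk RNA, fewer cells of a type and less RNA per cell cannot be told apart.

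Among the ligands, Hbegf (ENSMUSG00000024486), the heparin-binding member that binds EGFR and ERBB4, had the highest level per length. Its level was 36.3, 41.2, 36.2 and 34.1 CPM in sham 1 to 4 and 38.3, 27.6, 46.4 and 56.0 CPM in ASC 1 to 4. ASC 3 and ASC 4 lay above every sham library and ASC 2 below every one. The means were 37.0 ± 3.0 CPM in sham and 42.1 ± 12.0 CPM in ASC (SD, n = 4 each), for a log2 fold change of 0.18 (SE 0.18, interval -0.23 to 0.60, adjusted p = 0.706, edgeR). It was 0.01 without ASC 4 and 0.34 without ASC 2. The interval runs from 0.855-fold to 1.51-fold of the sham level. The SD of log2 CPM was 0.114 in sham and 0.434 in ASC, a difference in spread that was not tested.

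Tgfa (ENSMUSG00000029999), transforming growth factor alpha, an EGFR ligand, was at 12.3, 13.5, 10.8 and 7.52 CPM in the sham libraries and 12.2, 10.3, 10.6 and 14.4 CPM in the ASC libraries. The lowest value was sham 4 and the highest ASC 4, and the other 6 libraries interleaved. Its log2 fold change was 0.10 (SE 0.18, interval -0.30 to 0.49, adjusted p = 0.855, edgeR). The sign is not fixed by the data, since it was -0.05 without sham 4, -0.01 without ASC 4 and -0.04 when libraries were scaled by their totals alone.

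Btc (ENSMUSG00000082361), betacellulin, which binds EGFR and ERBB4, was scarce, with 169 reads over the sham libraries and 100 over the ASC libraries. It stood at 1.92, 2.24, 2.95 and 1.41 CPM in sham and 0.701, 0.923, 1.62 and 2.97 CPM in ASC. ASC 1 and ASC 2 lay below all sham libraries and ASC 4 marginally above all of them. The log2 fold change of -0.47 (SE 0.43, interval -1.42 to 0.47, adjusted p = 0.667, edgeR) had the lowest unadjusted p of the tested members (0.296). It was -0.98 without ASC 4 (adjusted p = 0.32), -0.24 without ASC 1, -0.29 without ASC 2, -0.28 without sham 3 and -0.04 without both sham 3 and ASC 1. By the root mean square difference of log2 CPM over the 8 libraries, each gene centred on its mean, the genes closest to Btc among 12916 were Fgd6 (0.285), Fbxo46 (0.321), Pcdhb8 (0.324), Gm15265 (0.333) and Tpbg (0.340), where the median gene was at 0.687.

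Areg and Ereg, amphiregulin and epiregulin, were close to undetected in both groups. Areg had 1 read in sham 4 and 1 in ASC 4, and Ereg 1 read in sham 1 and 1 in ASC 3. Both had 0 reads in the other 6 libraries, where a count of 0 allows up to 3 reads, which is 0.142 to 0.208 CPM depending on the library total (counting error only). No fold change is given, and a change below that limit was not detectable at this depth. Epgn, epigen, which is not among the 10, had 0 reads in sham and 4 in ASC. In the GENCODE annotation Epgn, Ereg, Areg and Btc are 4 consecutive protein-coding genes on chromosome 5, and of them Btc alone was tested, with 269 reads over all libraries. Egf itself averaged 2.30 ± 0.996 CPM in the sham libraries and 2.24 ± 0.927 CPM in the ASC libraries (log2 fold change -0.05, adjusted p = 0.971, edgeR).

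**Figure D1:**
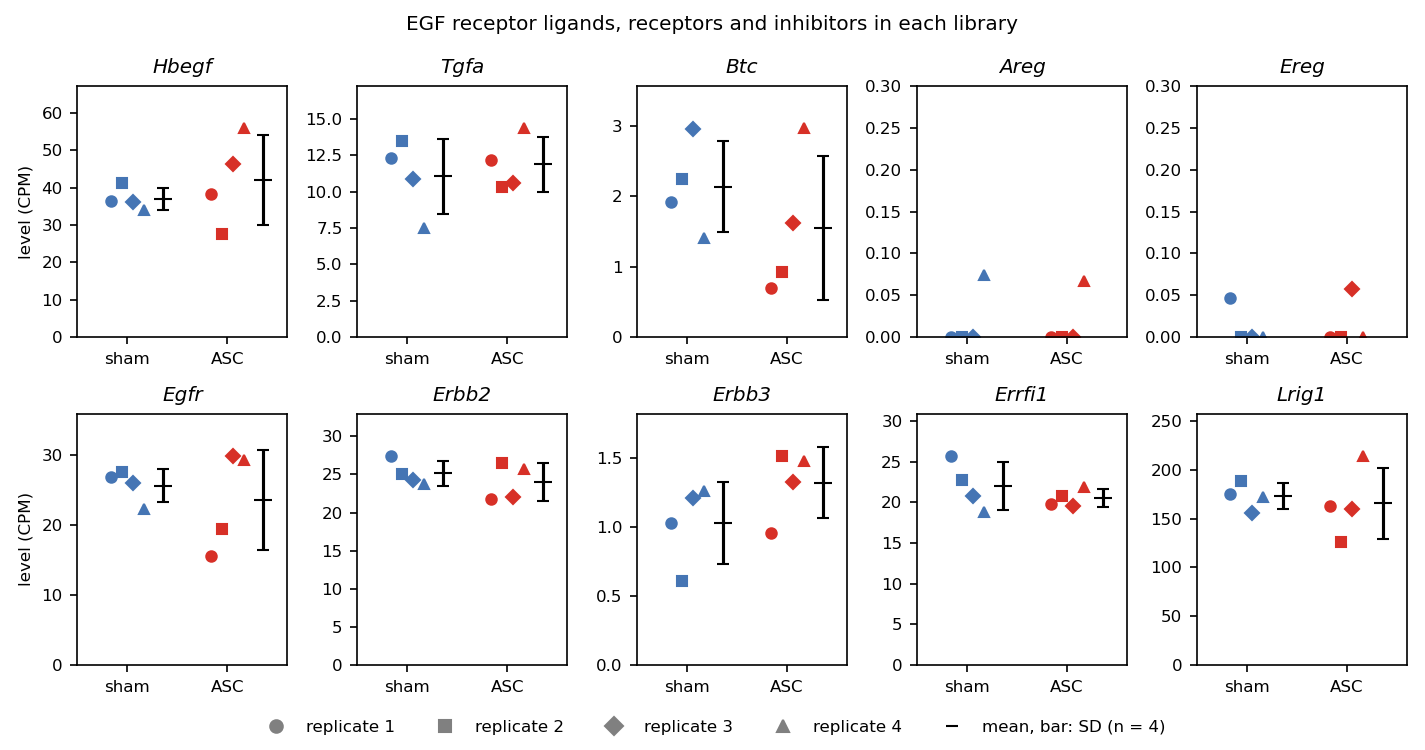
Levels in CPM (linear axes from 0) of the 10 genes in the 4 sham (blue) and 4 ASC (red) libraries, 1 symbol per library, with the mean and SD of each group as a black bar except for Areg and Ereg. The groups overlap in every panel, Areg and Ereg have 2 libraries each with a single read, and Hbegf spans 34.1 to 41.2 CPM in sham and 27.6 to 56.0 CPM in ASC.

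No receptor passed the test. Egfr (ENSMUSG00000020122), the receptor for all the EGF receptor ligands named above, was at 26.8, 27.5, 25.9 and 22.2 CPM in sham and 15.6, 19.4, 29.9 and 29.2 CPM in ASC. The ASC libraries fell on both sides of the sham range, ASC 1 and ASC 2 below it and ASC 3 and ASC 4 above it. The log2 fold change was -0.12 (SE 0.19, interval -0.56 to 0.31, adjusted p = 0.818, edgeR), and 0.03 without ASC 1. The SD of log2 CPM was 0.138 in sham and 0.457 in ASC.

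Erbb2 (ENSMUSG00000062312), the co-receptor that binds no ligand and pairs with the other family members, had the tightest interval of the 8. It stood at 27.5, 25.1, 24.3 and 23.8 CPM in sham and 21.7, 26.5, 22.0 and 25.8 CPM in ASC. ASC 1 and ASC 3 were below every sham library and no ASC library was above all of them. The means were 25.2 ± 1.63 and 24.0 ± 2.47 CPM, with a log2 fold change of -0.07 (SE 0.10, adjusted p = 0.807, edgeR) whose interval of -0.29 to 0.15 corresponds to 0.818-fold to 1.11-fold.

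Erbb3 (ENSMUSG00000018166), a neuregulin receptor with little kinase activity of its own, was near the lower limit of the test, with 13 to 28 reads per library. Its level was 1.03, 0.607, 1.21 and 1.27 CPM in sham and 0.957, 1.52, 1.33 and 1.48 CPM in ASC, where 3 ASC libraries exceeded every sham library and ASC 1 did not. The log2 fold change was 0.37 (SE 0.36, interval -0.40 to 1.15, adjusted p = 0.686, edgeR), so a 2-fold rise could not be told from no change.

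The receptor and ligands of the family outside the 10 also stayed below the threshold. Erbb4, a receptor for neuregulins and for HB-EGF, ranged over 14.1 to 15.3 CPM across sham libraries and 14.1 to 22.3 CPM across ASC libraries, with 3 ASC libraries above the sham range (log2 fold change 0.28, SE 0.14, adjusted p = 0.398, edgeR). Nrg4, a neuregulin that binds ERBB4, had the largest log2 fold change of the 13 tested ligands, receptors and inhibitors, 2.01 ± 0.604 CPM in the sham libraries against 3.89 ± 1.57 CPM in the ASC libraries (log2 fold change 0.96, SE 0.36, interval 0.18 to 1.74, adjusted p = 0.242, edgeR). Its unadjusted p was 0.0198, ASC 1, ASC 3 and ASC 4 were above every sham library and ASC 2 was not. Nrg2 (0.14, adjusted p = 0.759) and Nrg1 (0.46, adjusted p = 0.747) did not pass edgeR's test, and Nrg3 had 11 reads in sham and 18 in ASC and was not tested.

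Both inhibitors were in the same position. Errfi1 (ENSMUSG00000028967), also called MIG6, binds the EGFR and ERBB2 kinase domains and blocks their activity. It was at 25.7, 22.7, 20.7 and 18.8 CPM in sham and 19.8, 20.8, 19.5 and 21.9 CPM in ASC. All 4 ASC libraries lay inside the sham range. The log2 fold change was -0.10 (SE 0.11, interval -0.35 to 0.14, adjusted p = 0.732, edgeR), whose upper end is a 1.10-fold rise.

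Lrig1 (ENSMUSG00000030029), a transmembrane protein that promotes degradation of ERBB receptors, had the highest level per length of the 10. It stood at 175, 188, 156 and 172 CPM in sham and 163, 126, 160 and 215 CPM in ASC, with ASC 2 lowest and ASC 4 highest of all 8 libraries. The means were 173 ± 13.3 and 166 ± 36.4 CPM (log2 fold change -0.06, SE 0.14, interval -0.37 to 0.25, adjusted p = 0.888, edgeR). The log2 fold change was 0.05 without ASC 2 and -0.21 without ASC 4.

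**Figure D2:**
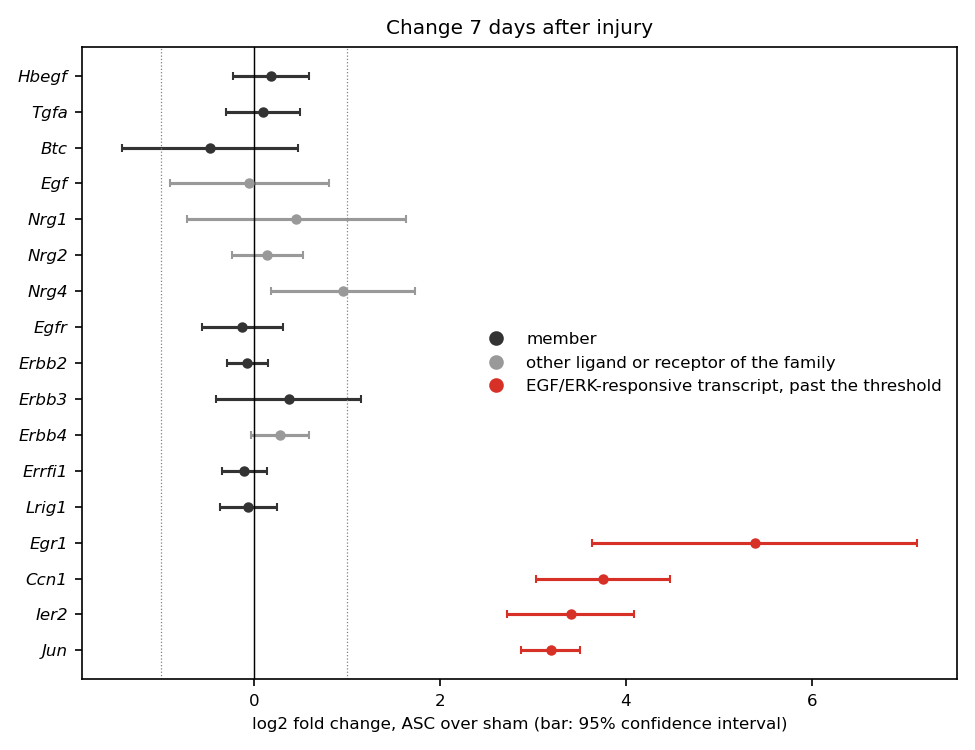
Log2 fold change of ASC over sham with its 95% confidence interval from edgeR for the 8 tested members (black), the tested ligands and receptors of the family outside them (grey) and the 4 named EGF- and ERK-responsive transcripts past the threshold (red); dotted lines mark a 2-fold change. The members, shown whatever their result, lie between -0.47 (Btc) and 0.37 (Erbb3), and every member's interval includes 0. Egr1, Ccn1, Ier2 and Jun lie between 3.19 and 5.38. They were picked from their list because they passed the threshold with large changes, so their distance from the members follows from that choice.

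Levels of different genes were compared per length, as CPM per kilobase of the gene's merged exons. Over the 8 libraries Lrig1 averaged 30.3 CPM per kb, above 94.1% of all tested genes. Hbegf followed at 8.17, Errfi1 at 5.93, Erbb2 at 4.72, Egfr at 2.17, Tgfa at 1.76, Btc at 0.408 and Erbb3 at 0.195 CPM per kb. Lrig1 exceeded Hbegf, Erbb2 exceeded Egfr, and Tgfa exceeded Btc in all 8 libraries without overlap of their ranges. Hbegf and Errfi1 overlapped in range and kept their order in 7 libraries, Errfi1 and Erbb2 overlapped and kept theirs in 8, Egfr and Tgfa overlapped and kept theirs in 7, and Btc and Erbb3 overlapped and kept theirs in 6. With the longest annotated transcript as the length, Egfr was above Tgfa in 3 of the 8 libraries, at means of 2.40 and 2.53 CPM per kb, so their order depends on the length used. By that length Hbegf averaged 13.7 CPM per kb, and Hbegf, Errfi1 and Erbb2 kept their order in 8 libraries without overlap.

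**Figure D3:**
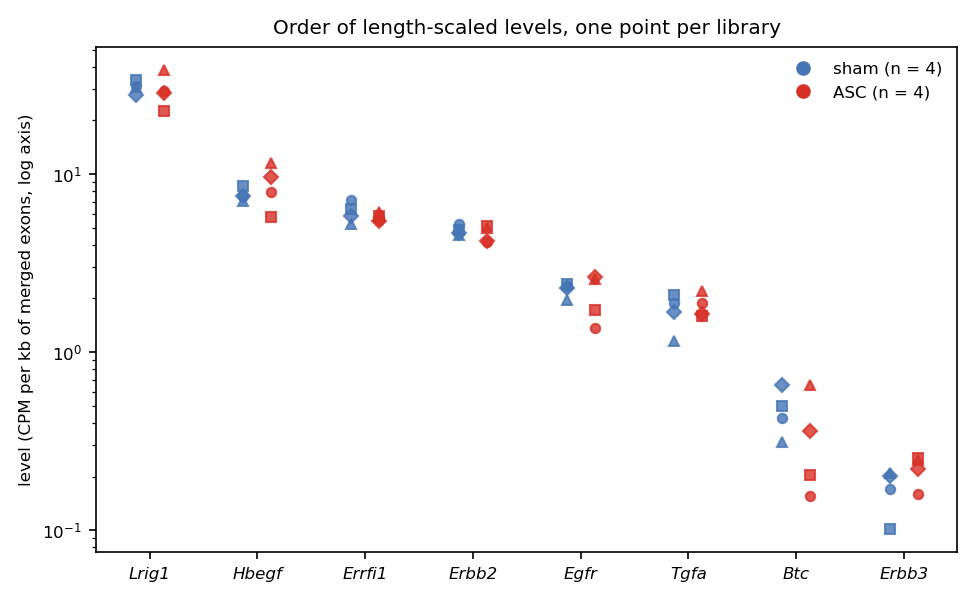
Levels in CPM per kb of merged exons (log axis) of the 8 members with enough reads to be tested, ordered by their mean, with 1 point per library, sham in blue and ASC in red. Lrig1 lies between 22.6 and 38.4, above every other member in every library, and Btc and Erbb3 share the bottom of the order.

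Within each library the pool of EGF receptor ligands was dominated by 1 gene. This pool leaves out the neuregulins, of which Nrg2 averaged 4.67 CPM per kb over the 8 libraries. Hbegf made up 76.3% ± 2.82 of the summed CPM per kb of the 7 EGF receptor ligands in sham and 77.9% ± 3.27 in ASC (SD, n = 4 each). Tgfa held 16.8% ± 2.56 and 17.0% ± 3.07, Btc 4.67% ± 1.29 and 2.91% ± 1.21, and Egf 2.07% ± 0.914 and 1.8% ± 0.587. Over the 8 libraries Btc averaged 3.79% and Egf 1.93%. With the longest annotated transcript as the length they averaged 2.63% and 2.82%, so the order of Btc and Egf depends on the length used. Of the 4 ERBB receptors, Erbb2 made up 57.1% ± 1.46 in sham and 55.4% ± 4.80 in ASC, Egfr 26.7% ± 1.46 and 24.6% ± 5.85, Erbb4 14.1% ± 0.738 and 17.4% ± 3.22, and Erbb3 2.04% ± 0.657 and 2.61% ± 0.253. The Lrig1 level per kb was 13.8 ± 1.50 times that of Egfr in sham and 15.0 ± 4.43 times in ASC, with ASC 1 at 21.2 and ASC 3 at 10.8.

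**Figure D4:**
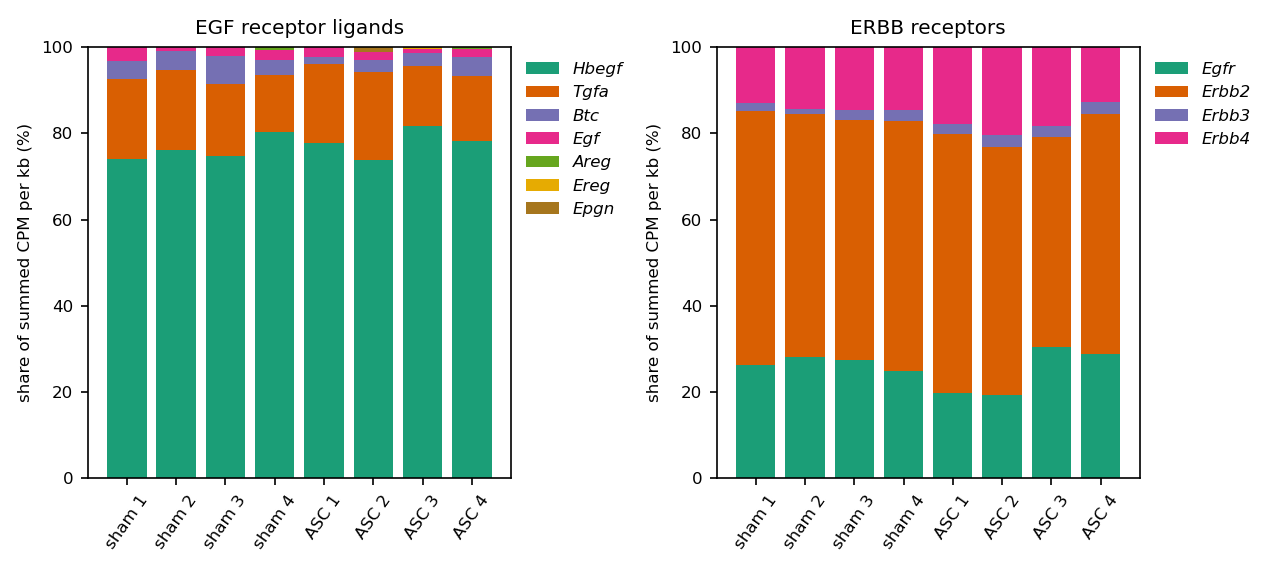
Share (%) of each gene in the summed CPM per kb of the 7 EGF receptor ligands (left) and of the 4 ERBB receptors (right), 1 stacked bar per library. Hbegf takes 73.7 to 81.7% of the ligand sum and Erbb2 48.8 to 60.0% of the receptor sum in the 8 libraries.

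Libraries of both groups differed among themselves in these genes. Of the sham libraries, sham 4 was the lowest for Hbegf, Tgfa, Btc, Egfr, Erbb2 and Errfi1. Sham 2 was the lowest for Erbb3 and sham 3 for Lrig1. How often sham 4 was lowest over all tested genes was not counted. ASC 4 was the highest ASC library for 5 of the 8 tested members (Hbegf, Tgfa, Btc, Errfi1 and Lrig1), against 27.0% of all tested genes, and the lowest for 0, against 26.4%. ASC 1 was the lowest for 4 (Btc, Egfr, Erbb2 and Erbb3), against 28.6% of tested genes, and ASC 2 was the lowest for 3 (Hbegf, Tgfa and Lrig1), against 25.0%. ASC 4 also had the highest summed red cell, pigment and corneal markers of the 8 libraries, and ASC 1 the highest summed fibre markers. The corneal sum of ASC 4 was mostly Aldh3a1, at 920 CPM. The part of these markers' cells in the values was not tested. The SD of log2 CPM was larger in ASC for 5 of the 8 members (Hbegf, Btc, Egfr, Erbb2 and Lrig1), and for 49.7% of all tested genes.

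**Figure D5:**
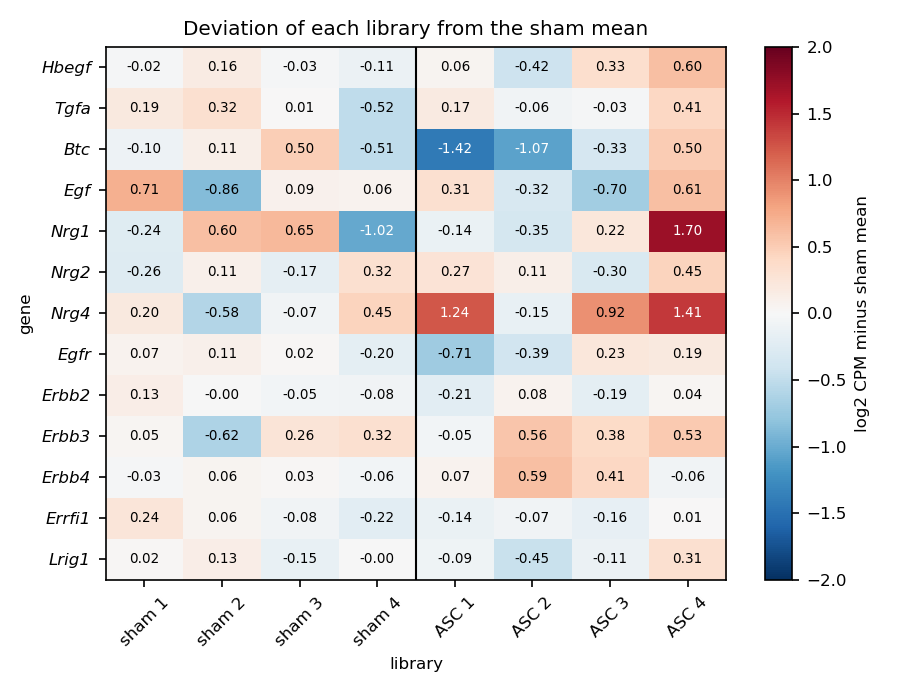
Log2 CPM of each library minus the sham mean for the 13 tested ligands, receptors and inhibitors (rows) in the 8 libraries (columns), red above and blue below the sham mean. ASC 4 is at 0.60 for Hbegf and 1.70 for Nrg1, ASC 2 at -0.42 for Hbegf and -0.45 for Lrig1, and ASC 1 at -1.42 for Btc and -0.71 for Egfr.

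Around the members, 5 lists of the pathway's machinery held no gene past the threshold. Over all tested genes 1.02% passed in edgeR, 3.06% in DESeq2 and 0.675% in limma-voom, so a count of 0 in lists this short is close to that share. An unadjusted edgeR p below 0.05 was found for 14.7% of all tested genes. Of 13 feedback inhibitors, ubiquitin ligases and phosphatases of the receptor, Errfi1 and Lrig1 included, 0 passed in edgeR, DESeq2 or limma-voom, 2 had an unadjusted edgeR p below 0.05, and the median log2 fold change was -0.06. Cbl, the ligase that marks activated EGFR for degradation, averaged 59.3 ± 7.61 CPM across sham libraries and 57.1 ± 2.0 CPM across ASC libraries. Of 11 tested genes of ligand shedding 0 passed by any of the 3 tools, 2 had an unadjusted edgeR p below 0.05, and the median was 0.04. Adam17, the main protease that releases HB-EGF and TGF-alpha, was named after its value was seen, with a log2 fold change of 0.02. The abundant Timp3, an inhibitor of ADAM17, averaged 160 ± 28.4 CPM across sham libraries and 225 ± 36.4 CPM across ASC libraries (0.49, SE 0.15, adjusted p = 0.155, edgeR), and nardilysin (Nrd1), an enhancer of shedding, was at 0.27. Timp3 passed with no low-count filter (adjusted p = 0.00482) and without sham 3 and ASC 1 (adjusted p = 0.0408, edgeR).

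Of 8 co-receptors and heparan sulfate proteoglycans 0 passed by any of the 3 tools and 0 had an unadjusted edgeR p below 0.05 (median 0.10), with perlecan (Hspg2) at 0.28 and the hyaluronan receptor Cd44 at -0.12. Of 29 adaptors and members of the RAS-ERK relay 0 passed by any of the 3 tools and 4 had an unadjusted edgeR p below 0.05 (median 0.003), with the phosphatase Ptpn11 at 0.08 and ERK1 (Mapk3) at 0.11. Of 18 tested genes of receptor endocytosis and sorting 0 passed by any of the 3 tools and 2 had an unadjusted edgeR p below 0.05 (median -0.01), with clathrin heavy chain (Cltc) at -0.07 and Rab7 at 0.11.

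Transcripts known to follow EGF receptor and ERK activation were the 1 list in which genes passed. In edgeR's test 8 of the 38 tested rose and 0 fell, where 0.631% of all tested genes rose and 0.391% fell, and the list's median log2 fold change was 0.69. The count was 7 without sham 1, sham 2, ASC 1 or ASC 3. It stayed at 8 without sham 4 or ASC 4, with other scalings and with a stricter low-count filter. It was 10 without ASC 2, 11 without robust estimation and 12 with the replicate block. It was 13 without sham 3, 14 without sham 3 and ASC 1, 15 with no low-count filter, 18 in DESeq2 and 12 in limma-voom. Many of these genes also answer stress, serum and mechanical signals, and the list was chosen with the rise of immediate early genes in these libraries already known, so it is not independent evidence of its direction. The 8 were Egr1 (5.38), Egr3 (4.49), Ccn1 (3.75), Ier2 (3.40), Jun (3.19), Plau (3.16), Dusp1 (2.19) and Maff (1.44), of which Egr3, Plau, Dusp1 and Maff were named after their values were seen. Jun, an AP-1 subunit, averaged 28.4 ± 3.13 CPM across sham libraries and 259 ± 49.0 CPM across ASC libraries (SE 0.15, adjusted p = 6.8e-07, edgeR). Hbegf, Areg, Ereg and Errfi1 belong to the same list. The 2 that could be tested, Hbegf (0.18) and Errfi1 (-0.10), had 95% intervals ending at 0.60 and 0.14. They were among 14 of the 38 whose interval lay within a 2-fold change either way, against 72.2% of all tested genes. The intervals of Egr1, Ccn1, Ier2 and Jun began at 2.72 (Ier2) or higher. These 4 were named because they passed with the largest changes at an average log2 CPM of at least 1. Their distance from Hbegf and Errfi1 follows from that choice. The list also holds 10 tested Dusp, Spry, Spred and Etv genes, families that include feedback regulators and transcriptional targets of ERK, and they were grouped after their values were seen. Of these Dusp1 passed and the other 9 did not (adjusted p from 0.0713 to 0.897, edgeR). Their log2 fold changes were 1.49 for Dusp5, 0.65 for Dusp4, 0.63 for Spry4, 0.58 for Etv4, 0.46 for Dusp6, 0.30 for Spry2, 0.07 for Etv5, -0.05 for Spred1 and -0.11 for Spred2. Dusp5 passed in DESeq2 (adjusted p = 0.00218), with the replicate block (0.0219), with no low-count filter (6.4e-06), without sham 3 (0.0137) and without sham 3 and ASC 1 (0.011), and Dusp6 with no low-count filter (adjusted p = 0.0438, edgeR). The protein, cleavage and phosphorylation of these ligands and receptors were not measured.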

How the data were processed

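The values analysed are raw whole-number counts per gene, as the authors deposited them. CASAVA, fastp, HISAT2 2.0.5 and featureCounts 1.5.0-p3 are named in the submitters' processing notes. The sources used here give no genome build, annotation release or strand setting, so coordinates are left out, and reads of overlapping opposite-strand genes cannot be told apart. Such overlaps in GENCODE M21 were Ereg with Gm19610, Tgfa with Gm43917, Erbb2 with Mien1 and Lrig1 with Slc25a26, each under 150 bp in any exon. GENCODE M21 gave symbols and lengths for 54495 of the 54532 genes.

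The fit used edgeR 4.0.16 (R 4.3.3): filterByExpr left 15857 genes, TMM scaled the libraries, and ASC was tested against sham by the quasi-likelihood F test with robust estimation and no covariates, with Benjamini-Hochberg adjustment over all genes tested and a threshold of 0.05. Intervals are 95%. Log2 CPM used a prior count of 2. The fit was tested on simulated counts of 15524 genes for this comparison, where it called 67% of 2-fold and 91% of 4-fold changes, with 7.6% of calls false. Changes were put only in genes above a minimum mean level, and counts were drawn independently for each gene and library. The rates are averages over such genes and not the power for any single member. Alternatives were DESeq2 1.42.0, limma-voom (limma 3.58.1), other scalings and filters, a replicate block and each library left out.

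The members and the 6 pathway and 10 marker lists were chosen with earlier results of these data known. Named genes were all members, the rest of the family, up to 4 genes past the threshold per list whose average log2 CPM reached 1 (otherwise the 2 most abundant), and the 5 genes most like the member with the lowest p. Summed retina markers were 1002 to 4168 CPM in sham and 1944 to 3713 CPM in ASC. Stromal markers were at 611 to 757 and 596 to 810 CPM, and vessel markers at 7.07 to 18.4 and 5.36 to 14.6 CPM. Lens epithelial markers summed to 32682 to 43286 and 32985 to 48097 CPM. Most of that last sum was the crystallin Cryab, at means of 35500 CPM in sham and 38265 CPM in ASC, so it says little about the other epithelial markers.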

Additional observations from a re-analysis of the deposited data

Results flagged for a closer look

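Nrg1, neuregulin 1, stood apart in 1 library: ASC 4 was at 5.53 CPM and the other 3 ASC libraries at 1.25 to 1.91 CPM, a gap of 0.846 of the group's range. That is above Dixon's 95% critical value for 4 samples, which chance exceeds in about 1 of 20 groups, and 28 groups were examined. The sham libraries were at 0.744 to 2.62 CPM. The log2 fold change of Nrg1 was 0.46 with all libraries and -0.25 without ASC 4.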

How the results depend on the processing

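The number of the 10 genes past the threshold was 0 in the 17 alternatives, and the lowest adjusted p of any member in them was 0.274 (Hbegf without ASC 2). Of the 136 log2 fold changes of the 8 tested members under these alternatives, 130 kept their sign and 6 did not. The 6 were Tgfa with library totals (-0.038), without sham 4 (-0.046) and without ASC 4 (-0.011), Egfr without ASC 1 (0.028) and without sham 3 and ASC 1 (0.034), and Lrig1 without ASC 2 (0.047). With 1 library left out the values reached 0.199 for Tgfa, -0.262 for Egfr and -0.213 for Lrig1. Outside the members the sign also changed for Egf without sham 1 (0.252), ASC 2 (0.065) or ASC 3 (0.148) and for Nrg1 without ASC 4 (-0.252), with other ends of -0.299 for Egf and 0.684 for Nrg1. Over all genes, the median was 0.01 with TMM and -0.12 with library totals. The count of all genes past the threshold, 162, was 571 with DESeq2, 107 with limma-voom, 712 with no low-count filter and 340 without sham 3 and ASC 1, which was chosen after seeing the data. It was 56 to 228 with 1 library left out; the cause was not tested. With the replicate number as a block the count was 169 and 0 members passed. Same-numbered libraries of the 2 groups correlated at 0.217, 0.0573, 0.214 and -0.0897 in their deviations. Values for differently numbered libraries are not given here, so these do not decide whether the numbers pair libraries. The numbers were not taken to pair them because the labels do not say that a number marks a shared animal, litter or day. Depth limits Areg, Ereg, Epgn and Nrg3, which had too few reads to test.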
